A study of Mus musculus with 4 samples.

Results

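Ribavirin is a guanosine analog used as an antiviral drug. Nucleoside transporters of the SLC29 family carry it across membranes, adenosine kinase phosphorylates it, and its monophosphate inhibits IMP dehydrogenase, the enzyme that commits IMP to the synthesis of guanine nucleotides. The 10 genes described here encode proteins along that route and were chosen by symbol from all genes listed in the data. They are the transporters Slc29a1 and Slc29a3, the kinase Adk, the phosphatase Nt5c2, the IMP-producing enzymes Atic and Hprt, and Impdh1, Impdh2, Gmps and Guk1, which lead from IMP to GDP. All 10 were detected.

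CD45+ cells of the nasal mucosa were taken from C57BL/6 mice aged 8 weeks and sequenced cell by cell in 4 libraries, 1 for each treatment. The treatments were Vehicle and Ribavirin, each without and with OVA (Vehicle-OVA and Ribavirin-OVA). Ovalbumin (OVA) served to induce allergic rhinitis, and ribavirin was given as a spray directed at the viruses resident in the nose. Lists of 4 values below follow the order Vehicle, Vehicle-OVA, Ribavirin, Ribavirin-OVA. How many mice were pooled into a library, the composition of the vehicle and the dose and timing of ribavirin were not given in the sources used here. With 1 library for each treatment no difference between treatments has a replicate check. The values below are therefore given with no test, and their intervals, all at 95%, cover counting error only.

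The libraries held between 10311 and 28277 cells, a median of 3389 to 4952 UMIs per cell and 57 to 174 shared cell barcodes per pair of libraries. The Ribavirin library held no cell below 1782 UMIs, against 500 or 501 in the other 3. After filters on UMIs, genes, mitochondrial share and doublets 66180 cells remained in 39 clusters, and 11 classes had at least 50 cells in every library. These were neutrophil-like, macrophage-like, monocyte-like, conventional dendritic cell (cDC)-like, plasmacytoid dendritic cell (pDC)-like, T cell-like, NK-like, ILC2-like, B cell-like, plasma cell-like and epithelial-like cells. The 10 classes other than the epithelial-like one are called leukocyte classes here. Ptprc, which encodes CD45, stood between 20.4 and 181 CPM (UMIs of a gene scaled to a total of 1e+06) in epithelial-like cells and between 132 and 3056 CPM in the leukocyte classes. The epithelial-like cells went against the CD45+ label in Vehicle-OVA, Ribavirin and Ribavirin-OVA (at most 76.8 CPM), while in Vehicle they (181 CPM) overlapped plasma cell-like cells, the lowest of the leukocyte classes. Among the larger clusters left without a class, compared by number, were cluster 0 (led by Siglecf and Ltc4s), cluster 10 (led by Fnip2 and Hmox1) and cluster 15 (led by Tnfrsf4 and Foxp3).

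Several classes were made of different clusters in different libraries. Of the neutrophil-like cells, cluster 4 held most in Vehicle, cluster 1 in Vehicle-OVA and cluster 6 in Ribavirin, while in Ribavirin-OVA no cluster held more than 266 of 1208 cells. Of the macrophage-like cells, cluster 7 held most in Vehicle and Ribavirin and cluster 5 in both OVA libraries. Of the plasma cell-like cells, cluster 16 held most without OVA and cluster 22 with OVA. Cluster 29 among T cell-like cells and cluster 35 among monocyte-like cells came almost wholly from the Ribavirin library and were led by Mup5, with Obp1a among their 10 leading genes, which encode secreted lipocalins. Leaving both out left all 214 ratios of ribavirin to vehicle recomputed within their original intervals. Neutrophil-like cells made up 15.6% of the cells in Vehicle, 49.0% in Vehicle-OVA, 22.9% in Ribavirin and 14.2% in Ribavirin-OVA. Of clusters 0 and 10, which scored highest for neutrophil markers but were kept out of that class by the naming rule, the first took 13.1%, 4.04%, 11.4% and 12.9% of these libraries and the second 0.826%, 11.5%, 0.420% and 3.22%.

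In the GENCODE annotation of GRCm38 all 10 genes are protein-coding. Impdh1 lies on chromosome 6 (29200434 to 29216364, minus strand), Impdh2 on chromosome 9 (108560286 to 108565584, plus strand), Adk on chromosome 14 (21052574 to 21448569, plus strand) and Slc29a3 on chromosome 10 (60712072 to 60752794, minus strand). RefSeq promoter windows of 300 bases (250 before and 50 after each start, GRCm38.p6) were found for all 10 genes. They were searched for CACGTG, the E-box that factors of the MYC family can bind, which reads the same on both strands. The motif was in a window of 4 of the 10 genes (Atic, Impdh2, Slc29a1 and Nt5c2), and in 8.09% of all 27025 genes with a window. For Slc29a1 it was in 1 of 8 windows and for Nt5c2 in 1 of 7, so the sites of Atic and Impdh2, which have 1 window each, are shown, with the motif in capitals.
Atic, chr1:71557126-71557155, plus strand: gaggaggggcgggacctcggggtCACGTGg
Impdh2, chr9:108560314-108560343, plus strand: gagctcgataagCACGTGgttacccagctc
The motif began 7 bases before the RefSeq start of Atic and 110 bases before that of Impdh2. For Impdh2 it fell inside the gene as GENCODE draws it. For Atic it lay across the GENCODE start at 71557150. These matches describe the letters of the windows and were not tied to any measurement here.

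The 2 transporters were high in different cells. Slc29a3, the lysosomal member of the family, was highest in pDC-like cells, at 211, 334, 214 and 339 CPM. Macrophage-like cells came next at 183, 167, 159 and 186 CPM, followed by monocyte-like cells (mean 111 CPM) and cDC-like cells (mean 74.5 CPM), whose ranges over the 4 libraries overlapped. The lymphoid classes other than B cell-like and plasma cell-like cells were low, with T cell-like cells at 11.4 to 21.0 CPM and NK-like cells at 7.05 to 14.3 CPM. The pDC-like range did not overlap that of any other class, and the mean over the libraries was 23.6 times that of NK-like cells. In cells thinned to 1000 UMIs each, 19.5% to 27.6% of pDC-like cells and 0.151% to 1.91% of NK-like cells held a Slc29a3 UMI. Before thinning the shares were 73.6% to 90.9% and 3.06% to 8.23%, at median depths of 7369 to 11194 and 3494 to 5301 UMIs.

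Slc29a1, which encodes the equilibrative transporter ENT1 of the plasma membrane, was spread over pDC-like (mean 30.2 CPM), macrophage-like (29.7 CPM) and T cell-like cells (27.9 CPM), which overlapped in their ranges. T cell-like cells held 24.9, 26.9, 27.6 and 32.2 CPM. In neutrophil-like cells it was lowest, at 1.66, 1.02, 1.65 and 2.35 CPM, from 11 to 27 UMIs per library. The plasma cell-like range (2.01 to 10.6 CPM) reached down to it, and no other class did.

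Adk, the kinase that phosphorylates adenosine and ribavirin, was highest in plasma cell-like cells. It measured 47.9, 52.9, 48.0 and 48.9 CPM there, alike in the 4 libraries, and the pDC-like cells came next at 33.2 to 43.2 CPM without overlap. T cell-like cells stood at 13.6 to 19.1 CPM, macrophage-like cells at 4.97 to 7.31 CPM and neutrophil-like cells at 2.25 to 2.57 CPM. Nt5c2, a cytosolic 5'-nucleotidase that acts on IMP and GMP, was highest where Adk was low. In neutrophil-like cells it held 64.6, 45.3, 78.0 and 74.9 CPM, above cluster 0 (32.3 to 41.5 CPM) without overlap, while T cell-like cells held 15.2 to 19.6 CPM and ILC2-like cells came last at a mean of 12.3 CPM. After thinning, 4.22% to 7.38% of neutrophil-like and 0.939% to 1.96% of T cell-like cells held an Nt5c2 UMI, against 12.1% to 20.5% and 6.95% to 9.55% before thinning.

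Of the 2 genes whose products make IMP, Atic (the bifunctional last enzyme of de novo purine synthesis) had its highest mean in B cell-like cells, at 36.8, 82.7, 33.9 and 68.0 CPM, and the range of each class overlapped that of the next down the order. The lowest mean was in neutrophil-like cells, with 1.10 to 2.50 CPM, which overlapped cluster 10 (2.23 to 10.5 CPM). Hprt, the salvage enzyme that turns hypoxanthine and guanine into IMP and GMP, was highest in T cell-like cells (94.1 to 115 CPM) and differed little across most leukocyte classes. The 10 units from T cell-like to cDC-like cells, with means of 107 to 70.7 CPM, each overlapped the next. Neutrophil-like cells again had the lowest mean, at 30.6, 15.5, 24.3 and 23.5 CPM.

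From IMP to guanine nucleotides, Impdh2 was highest in cDC-like cells (78.2 to 88.7 CPM) and B cell-like cells (66.2 to 104 CPM), which overlapped, and had its lowest mean in neutrophil-like cells (6.99 to 9.66 CPM). Gmps, which aminates XMP to GMP, had its highest mean in plasma cell-like cells, with 52.1, 78.5, 49.3 and 101 CPM, overlapping NK-like and T cell-like cells, and its lowest in neutrophil-like cells at 5.74 to 12.4 CPM. Guk1, the kinase that converts GMP to GDP, was highest in epithelial-like cells (mean 72.0 CPM) and plasma cell-like cells (65.6 to 72.5 CPM), which overlapped, and had its lowest mean in neutrophil-like cells at 5.74 to 15.4 CPM.

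By the mean over the 4 libraries, neutrophil-like cells were the lowest of the 14 classes and numbered clusters for 6 of the 10 genes (Slc29a1, Atic, Hprt, Impdh2, Gmps and Guk1), and for Nt5c2 the highest. For Atic, Hprt, Impdh2, Gmps and Guk1 their range overlapped that of cluster 10, whose Impdh2 ran from 3.71 to 11.1 CPM. Between T cell-like and neutrophil-like cells the ratio of the mean levels over the 4 libraries was 22.1 for Atic, 16.7 for Slc29a1, 7.90 for Impdh2, 7.75 for Gmps, 7.47 for Impdh1, 6.33 for Adk, 5.54 for Guk1 and 4.54 for Hprt, and T cell-like cells were higher in all 4 libraries for each of these. On the log2 scale the ratio was 4.47 ± 0.61 for Atic (SD of the log2 ratios of the libraries, n = 4) and 2.18 ± 0.39 for Hprt. Nt5c2 was lower in T cell-like cells in all 4 libraries (−1.96 ± 0.33), and Slc29a3 was higher in 3 of 4 (0.26 ± 0.64), less than its spread. Cells were assigned to classes using all genes, so these differences are descriptions of the classes and have no test.

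**Figure D1:**
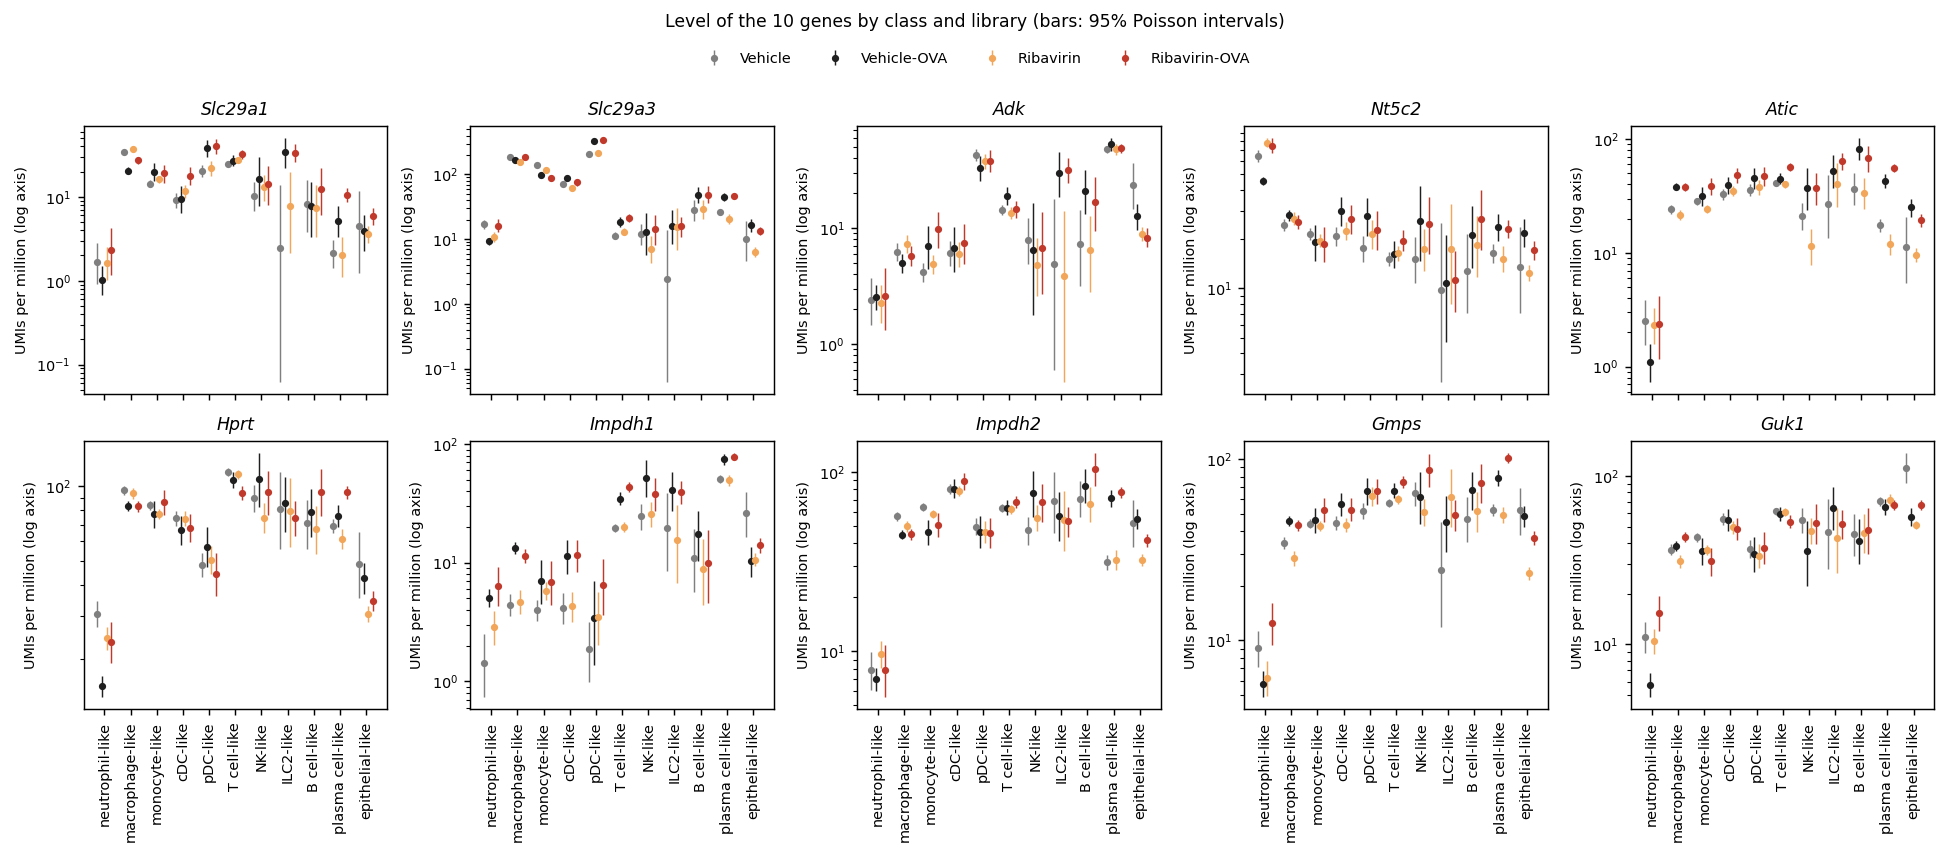
Level of each gene in CPM (log axis) in the 11 classes, with 1 point for each of the 4 libraries and bars for the 95% Poisson interval. Among these classes neutrophil-like cells have the lowest mean for Slc29a1, Atic, Hprt, Impdh2, Gmps and Guk1 and the highest for Nt5c2, while Slc29a3 peaks in pDC-like cells at 211 to 339 CPM and Adk in plasma cell-like cells at 47.9 to 52.9 CPM.

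The 2 IMP dehydrogenases catalyse the same step, and Impdh2 is generally regarded as the form induced in dividing lymphocytes. Plasma cell-like cells were the class where Impdh1 was highest, at 51.1 (47.3 to 55.1), 74.4 (66.8 to 82.7), 49.6 (44.7 to 54.9) and 78.1 (72.9 to 83.6) CPM. NK-like cells overlapped the lower end of that range (24.6 to 51.9 CPM), T cell-like cells held 19.6 to 43.2 CPM, and pDC-like cells only 1.86 to 6.49 CPM. Outside these classes, the olfactory neuron-like cluster 26, which is not a leukocyte cluster, held 352 CPM in Vehicle, 328 in Ribavirin and 477 in Ribavirin-OVA, the highest Impdh1 level of any cluster. Impdh1 is also the form known for its high level in photoreceptors.

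The share of Impdh2 in the UMIs of both genes separated the classes. A share of this kind depends on how well each gene's 3' end is captured, so its differences between classes and libraries are read here and not its distance from 50%. Plasma cell-like cells had shares of 38.0% (35.1 to 41.0), 49.0% (45.2 to 52.9), 39.5% (35.6 to 43.5) and 49.6% (47.2 to 52.0). The lowest share in monocyte-like, cDC-like and pDC-like cells was 86.9%, and the highest was 96.4% in pDC-like cells of Vehicle. T cell-like cells stood between, at 76.3% (74.5 to 78.0), 64.5% (60.7 to 68.2), 75.4% (73.3 to 77.4) and 61.1% (58.1 to 64.1). The Vehicle and Ribavirin libraries overlapped in their intervals in plasma cell-like and T cell-like cells, and so did the 2 OVA libraries. The OVA libraries were lower than their counterparts without overlap in T cell-like cells, and higher in plasma cell-like cells.

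The first question of the design for these genes is whether their transcripts differed between ribavirin and vehicle without OVA. A gene was counted in a class when it had at least 50 UMIs over the 4 libraries, which 107 of the 110 pairs of gene and class did, and a ratio was counted as past the fold at 1.5 or more in either direction. Few of the ratios were far from 1, with a median log2 ratio over the pairs of −0.04. Past 1.5-fold were 16 of the 107 pairs (15%), against 18.9% of all pairs of gene and class over the 11 classes. Of them 6 were higher, against 7.62% of all pairs, and 10 were lower, against 11.2%. Of the 10 lower pairs, 7 were in epithelial-like cells, where the median of all genes was also lower (log2 ratio −0.91). In the 10 leukocyte classes 9 of 97 pairs were past the fold (9.28%), against 11.2% of all pairs there. The share among the members was thus near the background, somewhat below it by each of these counts. The background took in all genes with at least 50 UMIs and was not matched for level, and the gap was not tested. After the median of all genes in each class was subtracted, 9 pairs were past the fold, 7 higher and 2 lower, and with doublets kept there were 8, 2 higher and 6 lower.

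In T cell-like cells, the most numerous lymphoid class, all 10 ratios of Ribavirin to Vehicle lay between 0.946 (Adk, 0.809 to 1.10) and 1.15 (Slc29a3, 0.974 to 1.36), and every interval covered 1. Impdh2 was 61.8 CPM in Ribavirin and 63.1 in Vehicle, and Impdh1 20.1 and 19.6. Macrophage-like cells had ratios between 0.819 (Gmps) and 1.18 (Adk), with the intervals of Slc29a3, Impdh2, Gmps and Guk1 below 1. In monocyte-like cells the intervals of Slc29a3 (0.853), Hprt (0.923), Atic (0.853), Impdh2 (0.912) and Guk1 (0.838) lay below 1 and that of Impdh1 (1.45, 1.11 to 1.90) above it. Over the 10 leukocyte classes the ratio of Slc29a3 was below 1 in 6 and above 1 in 4. It was 0.643 to 0.866, with intervals below 1, in neutrophil-like, plasma cell-like, cDC-like, monocyte-like and macrophage-like cells. In neutrophil-like cells the median log2 ratio of all genes was −0.16. How often other genes have such intervals was not counted.

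The pairs past 1.5-fold outside the epithelial-like cells were mostly of low counts. In ILC2-like cells Slc29a1 (ratio 3.15, 0.312 to 155) and Slc29a3 (6.31, 0.846 to 280) rested on 1 UMI in Vehicle against 4 and 8 in Ribavirin, and Atic (1.51, 0.694 to 3.46) had a wide interval. Gmps in the same cells was 24.6 CPM in Vehicle and 62.0 in Ribavirin (2.52, 1.21 to 5.76), from 10 and 32 UMIs, but its log2 ratio of 1.34 came to 0.08 with doublets kept, where the ILC2-like class was largely of other cells (2250 against 490). Atic in NK-like cells was 21.2 CPM in Vehicle and 11.5 in Ribavirin (0.543, 0.339 to 0.857), and Slc29a3 there had a ratio of 0.583 (0.312 to 1.06). Slc29a3 in neutrophil-like cells was 16.9 and 10.9 CPM (0.643, 0.507 to 0.816), and Impdh1 1.43 and 2.85 CPM (1.99, 1.02 to 4.19), with a log2 ratio of 1.00 that came to 0.18 with doublets kept. Impdh1 in pDC-like cells had a ratio of 1.89 (0.854 to 4.28). Of the pairs in this paragraph, ILC2-like Gmps, NK-like Atic and neutrophil-like Slc29a3 and Impdh1 had intervals that did not cover 1.

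In epithelial-like cells, which numbered 133 in Vehicle and 543 in Ribavirin, the ratio was 0.376 for Adk, 0.406 for Impdh1, 0.449 for Gmps, 0.456 for Guk1, 0.618 for Impdh2, 0.624 for Hprt and 0.625 for Slc29a3. In the same comparison 78.9% of all genes were past 1.5-fold. The class held other cells in the 2 libraries. Cluster 27 (led by Chil4 and Reg3g) gave 1 cell to Vehicle and 198 to Ribavirin, and cluster 32 (led by Bpifb9b and Bpifb9a) gave 18 and 223. In Ribavirin cluster 32 held 14.6 CPM of Hprt, 13.3 of Gmps and 4.41 of Slc29a3, against 66.97, 44.4 and 10.6 in cluster 27. Adk (8.56 and 5.83 CPM) and Impdh1 (10.8 and 10.1 CPM) were instead lower in cluster 27. The median depth of the class was 4211 and 16661 UMIs per cell, and Ptprc was 181 and 21.3 CPM, in Vehicle and Ribavirin. The part of these differences in the ratios was not tested. With the median of all genes subtracted, Slc29a3, Hprt and Impdh2 were on the other side of 1.

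No gene of the 10 was on the same side of 1 in all 10 leukocyte classes, as 4.04% of the genes counted in all of them were. Hprt came nearest, lower in 9 of 10, with ratios between 0.794 and 1.05.

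With OVA, 13 of the 107 pairs (12.1%) were past 1.5-fold between Ribavirin-OVA and Vehicle-OVA, against 22.8% of all pairs of gene and class. They were 11 higher pairs, against 12.7% of all pairs, and 2 lower ones, against 10.1%, and the median log2 ratio was 0.07. With the mean of single-cell CPM in place of the sum, the split was 11 higher and 7 lower. In the 10 leukocyte classes 11 of 97 pairs were past the fold (11.3%), against 21% of all pairs, and in the 9 without neutrophil-like cells 4 of 87 (4.6%), against 16.2%. By each of these counts the members stood below the background, which was again not matched for level, and the gap was not tested. No gene was on the same side of 1 in all 10 leukocyte classes, as 2.79% of the genes counted in all of them were.

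**Figure D2:**
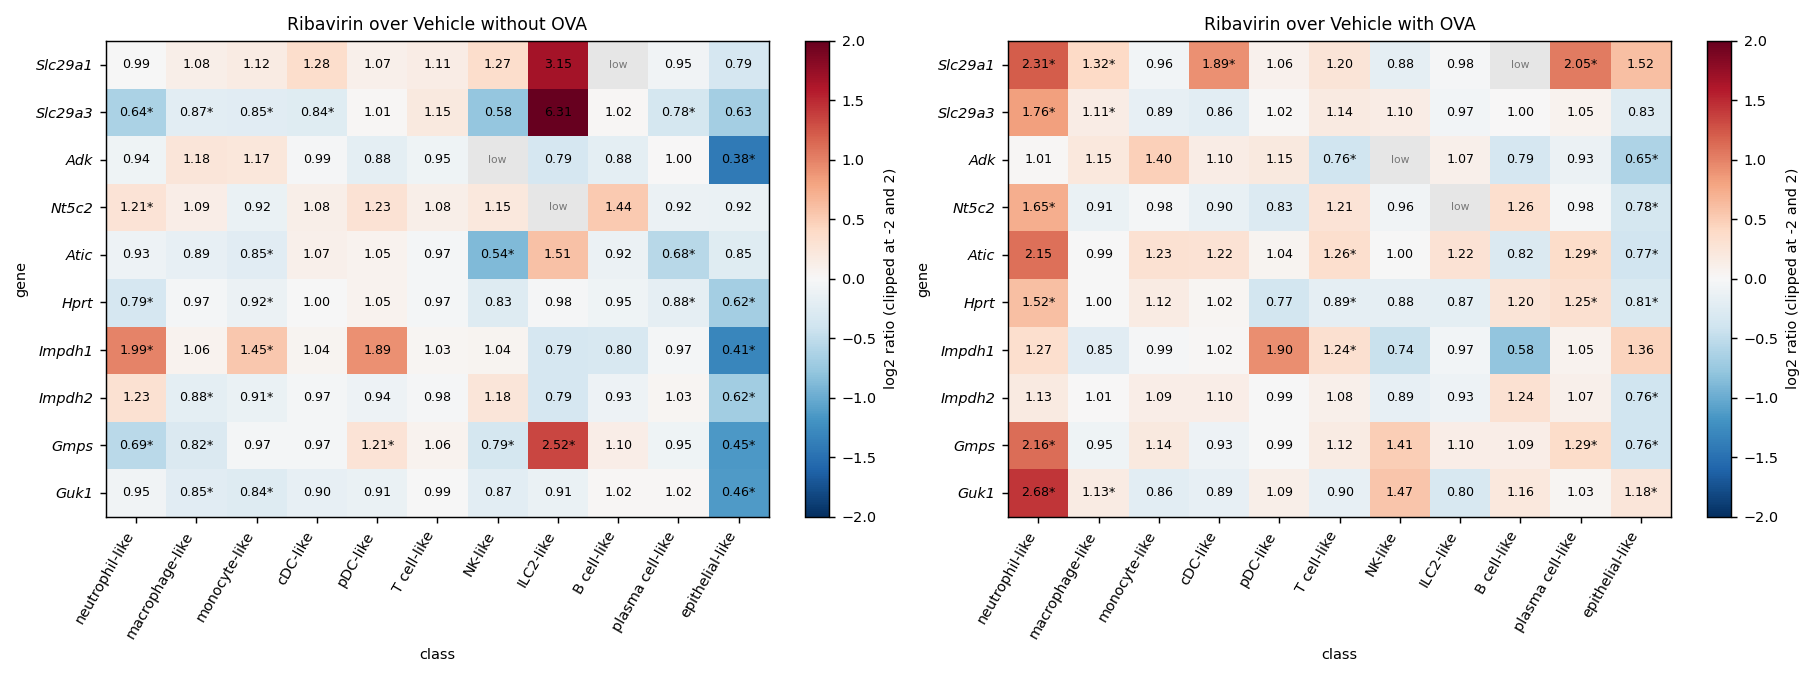
Ratio of Ribavirin to Vehicle for each gene and class, without OVA (left) and with OVA (right), with the colour giving the log2 ratio clipped at −2 and 2, a star where the 95% interval does not cover 1, and "low" where the gene had under 50 UMIs over the 4 libraries. Most values lie near 1, and the coloured columns are the epithelial-like one on the left, with 7 genes past 1.5-fold, and the neutrophil-like one on the right, also with 7.

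Of the higher pairs 7 were in neutrophil-like cells. There Guk1 was 5.74 CPM in Vehicle-OVA and 15.4 in Ribavirin-OVA (2.68, 2.00 to 3.57), Gmps 5.74 and 12.4 (2.16, 1.57 to 2.94), Slc29a3 9.26 and 16.3 (1.76, 1.34 to 2.28), Nt5c2 45.3 and 74.9 (1.65, 1.46 to 1.86) and Hprt 15.5 and 23.5 (1.52, 1.22 to 1.87). Slc29a1 had a ratio of 2.31 (1.03 to 4.81) and Atic one of 2.15 (0.968 to 4.43), each from 11 UMIs in Ribavirin-OVA. Adk, Impdh1 and Impdh2 were within the fold, with ratios of 1.01, 1.27 and 1.13. In the same comparison 64.0% of all genes were past the fold, and the median log2 ratio of all genes was 0.69 against 0.77 for the 10 members. With that median subtracted, Guk1 was the gene of the 7 that remained past the fold. Adk, from 12 UMIs in Ribavirin-OVA, was then past it on the lower side.

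The neutrophil-like clusters of the 2 OVA libraries differed, as cluster 1 held 4749 of 7946 cells in Vehicle-OVA and 182 of 1208 in Ribavirin-OVA. Cluster 1 was led by Csf3, Cxcl3 and Ccl3, genes of activated neutrophils, and cluster 4 by Lrg1 and Cxcr2, among others. Within cluster 4 the median log2 ratio of all genes was 0.00, and the ratios were 1.25 (0.708 to 2.11) for Slc29a3, 0.962 (0.609 to 1.47) for Nt5c2, 1.10 (0.594 to 1.94) for Hprt and 0.442 (0.0862 to 1.43) for Guk1. Within cluster 12, led by Rsad2 and Ifit1, Slc29a3 was 13.1 CPM in Vehicle-OVA and 26.5 in Ribavirin-OVA. Nt5c2 was 32.1 and 58.9 CPM there, and Hprt 16.7 and 38.3. Within cluster 14, led by Mmp8 and Retnlg, Guk1 (2.81, 1.39 to 5.37) and Gmps (4.26, 1.73 to 9.98) stayed above 1. Within cluster 1 Impdh1 was 6.63 CPM in Vehicle-OVA and 30.7 in Ribavirin-OVA (4.63, 2.50 to 8.00), while Slc29a3 was 5.53 and 2.05 CPM and Nt5c2 36.7 and 26.6. For Slc29a3, Nt5c2, Hprt, Gmps and Guk1 the clusters with 20 or more UMIs of the gene thus lay on both sides of 1.5-fold, and Slc29a1 and Atic had no such cluster.

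**Figure D3:**
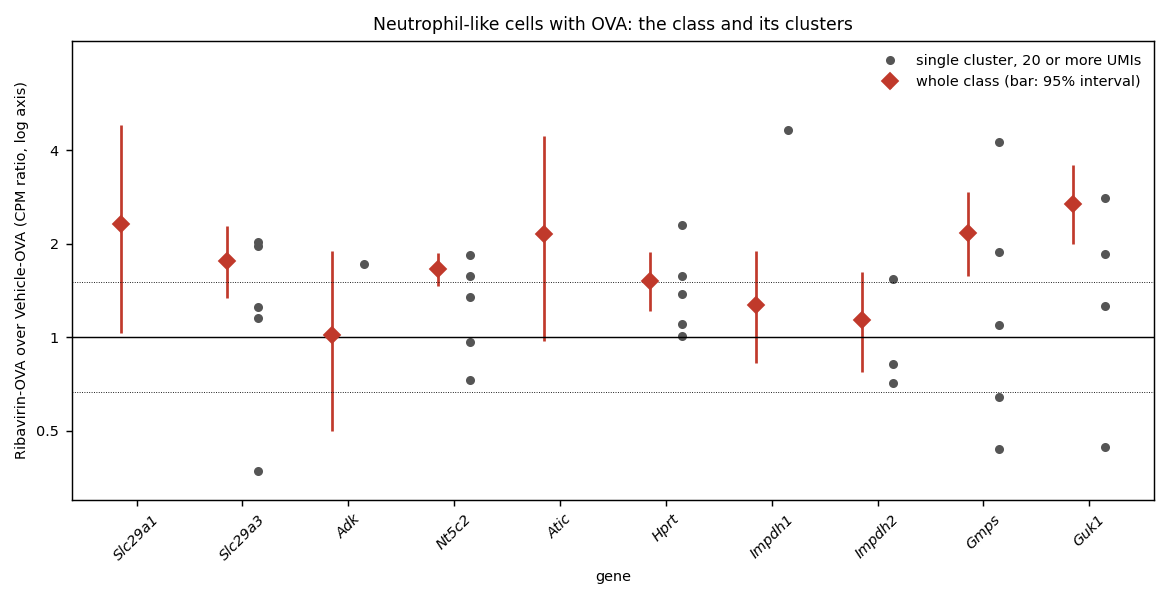
Ratio of Ribavirin-OVA to Vehicle-OVA (log axis) in neutrophil-like cells, for the whole class with its 95% interval (diamonds) and for single clusters in which the gene had 20 or more UMIs (grey points, a cluster with 0 UMIs in Ribavirin-OVA not drawn). Dotted lines mark 1.5-fold in either direction, and the points of Guk1 run from 0.442 to 2.81 around the class ratio of 2.68.

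Outside the neutrophil-like cells the pairs past the fold in leukocyte classes were Slc29a1 in cDC-like and plasma cell-like cells and Impdh1 in pDC-like and B cell-like cells. Slc29a1 in cDC-like cells was 9.12, 9.49, 11.7 and 17.9 CPM, highest in Ribavirin-OVA, and the ratio with OVA was 1.89 (1.21 to 2.99). Within the main cDC-like cluster 11 the ratio was 1.84 (1.17 to 2.96). A list of mitotic and replication genes, used below to measure dividing cells, summed to 163 CPM there in Vehicle-OVA and 454 in Ribavirin-OVA. In plasma cell-like cells Slc29a1 was 2.12, 5.18, 2.01 and 10.6 CPM, with a ratio of 2.05 (1.31 to 3.33), and in cluster 22 alone it was 2.13 in Vehicle-OVA and 4.90 in Ribavirin-OVA (2.30, 0.983 to 6.25). Slc29a1 was also higher in macrophage-like cells (20.6 and 27.3 CPM, 1.32, 1.16 to 1.51), so that its interval lay above 1 in 4 leukocyte classes with OVA and in none without OVA. These 4 classes included the neutrophil-like one, where the median log2 ratio of all genes was 0.69. How many other genes had intervals above 1 in as many classes was not counted. The difference between the comparisons with and without OVA was not tested. Impdh1 had ratios of 1.90 (0.730 to 5.51) in pDC-like and 0.580 (0.229 to 1.36) in B cell-like cells, both with intervals that covered 1. In T cell-like cells Impdh1 (1.24, 1.06 to 1.47) and Atic (1.26, 1.09 to 1.46) had intervals above 1 and Adk (0.761, 0.593 to 0.977) and Hprt (0.887, 0.802 to 0.980) below it.

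When all cells of a library were summed, the ratio of Ribavirin-OVA to Vehicle-OVA was above the median of the 10 leukocyte classes for 9 of the 10 genes, with a median log2 ratio of all genes of 0.42. Impdh1 was 16.6 CPM in Vehicle-OVA and 31.8 in Ribavirin-OVA (1.92, 1.80 to 2.05), Adk had a ratio of 1.58, Guk1 one of 1.58, and Slc29a1 and Atic 1.51 each. Without the neutrophil-like cells, in which these genes were low and which made up 49.0% of Vehicle-OVA and 14.2% of Ribavirin-OVA, the ratios were 1.53, 1.24, 1.20, 1.12 and 1.11. That sum still held the olfactory neuron-like cluster 26, with 21 cells in Vehicle-OVA and 90 in Ribavirin-OVA, and the plasma cell-like cells, with 1.60% and 5.82% of the cells, which were the highest in Impdh1. It also held clusters 0 and 10, which scored highest for neutrophil markers. Cluster 10 made up 11.5% of Vehicle-OVA and 3.22% of Ribavirin-OVA, and cluster 0 made up 4.04% and 12.9%. In Vehicle-OVA cluster 10 held 6.78 CPM of Guk1, 2.54 of Atic and 1.13 of Adk. Cluster 0 held 33.0, 21.8 and 1.52 CPM of these genes there. The part of all these cells in the ratios without neutrophil-like cells was not tested. The medians over the 10 leukocyte classes were lower still for Impdh1 (1.00), Adk (1.07) and Guk1 (1.06), and 1.20 for Slc29a1 and 1.22 for Atic. Nt5c2, which neutrophil-like cells held at the highest level, had the lowest ratio over all cells (0.828).

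The libraries with OVA were then set against those without, under vehicle and under ribavirin. Across classes Impdh1 was the member that was higher with OVA in all 10 leukocyte classes under both treatments. These 2 comparisons use separate pairs of libraries, each shared with the ribavirin comparisons above. Under vehicle its ratios ran from 1.46 in plasma cell-like to 3.55 in neutrophil-like cells, 7 intervals lay above 1 and 9 classes were past 1.5-fold higher. Of all pairs of gene and class over the 11 classes, which add the epithelial-like one (33.8%), 35.5% were. Of the genes counted in all 10 leukocyte classes, 16.5% were higher in all of them. Under ribavirin its ratios ran from 1.13 in B cell-like to 2.69 in cDC-like cells, 6 intervals lay above 1 and 7 classes were past the fold. Of all pairs over the 11 classes, with the epithelial-like one at 55.6%, 38.4% were past it. Of the genes, 33.9% were higher in all 10 leukocyte classes. The share of genes higher in all 10 under both treatments was not counted. Atic was also higher in all 10 classes under ribavirin (1.01 to 4.61) and in 9 under vehicle. The median of all genes was itself above 0 in most classes, with log2 ratios of 0.20 to 0.56 in the leukocyte classes other than the neutrophil-like one under vehicle (−0.45).

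In macrophage-like cells Impdh1 was 4.42 CPM in Vehicle and 13.3 in Vehicle-OVA (3.00, 2.37 to 3.85), and 4.67 in Ribavirin and 11.4 in Ribavirin-OVA (2.43, 1.86 to 3.21). The 2 libraries with OVA were both above the 2 without it. In T cell-like cells it was 19.6 and 34.8 CPM (1.77, 1.51 to 2.07) and 20.1 and 43.2 CPM (2.15, 1.87 to 2.47), and in cDC-like cells 4.15 and 11.3 CPM (2.73, 1.72 to 4.32) and 4.30 and 11.6 CPM (2.69, 1.73 to 4.15). Because the clusters of a class differed with OVA, Impdh1 was also set side by side within clusters that had 20 or more of its UMIs. It was higher with OVA in 15 of 15 clusters under vehicle and in 16 of 19 under ribavirin, with median ratios of 1.84 and 1.51, and with intervals above 1 in 7 and 8 of these clusters. Of all pairs of gene and cluster with as many UMIs, 66.5% were higher with OVA under vehicle and 67.1% under ribavirin. In the main T cell-like clusters 2, 8 and 9 the ratios were 1.59, 1.29 and 1.57 under vehicle and 2.06, 2.23 and 1.88 under ribavirin, with the interval of cluster 8 under vehicle (0.929 to 1.78) covering 1. In macrophage-like cluster 7 the ratio was 3.00 (1.67 to 5.09) under vehicle and 1.33 (0.513 to 2.90) under ribavirin. Slc29a3 was higher with OVA within 18 of 21 clusters under vehicle and 25 of 25 under ribavirin, and Atic within 15 of 17 and 20 of 21.

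The share of Impdh2 among the UMIs of both IMP dehydrogenases was lower with OVA in 9 of the 10 leukocyte classes under vehicle and in 8 under ribavirin. It was 92.8% (91.2 to 94.1), 77.1% (74.7 to 79.3), 91.4% (89.4 to 93.2) and 79.8% (77.2 to 82.3) in macrophage-like cells. In neutrophil-like cells it was 84.6%, 58.0%, 77.2% and 55.2%, and in cDC-like cells 95.1%, 87.7%, 94.8% and 88.5%. Libraries with and without OVA did not overlap in their intervals in macrophage-like or cDC-like cells. Summed over macrophage-like cells, whose clusters changed with OVA, Impdh2 had a ratio of 0.790 (0.725 to 0.860) under vehicle and 0.906 (0.820 to 1.00) under ribavirin. Within single clusters under vehicle it was 0.986 (0.764 to 1.25) in cluster 7, 1.20 (0.752 to 1.88) in cluster 31 and 1.53 (0.777 to 3.05) in cluster 23, and under ribavirin 0.704 (0.503 to 0.962) in cluster 7 and 1.03 (0.664 to 1.70) in cluster 5.

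Plasma cell-like cells went the other way, since Impdh2 was 31.4, 71.6, 32.4 and 76.9 CPM, with ratios of 2.28 (1.97 to 2.64) and 2.38 (2.06 to 2.75). Atic was 17.6, 42.9, 12 and 55.4 CPM in the same cells, and Gmps 52.1, 78.5, 49.3 and 101. Of these cells the cycling cluster 30 took 45 of 259 in Vehicle-OVA and 152 of 494 in Ribavirin-OVA, against 124 of 1212 in Vehicle and 48 of 573 in Ribavirin. Without the clusters high in cycling genes the log2 ratio of Impdh2 with OVA went from 1.19 to 0.69 under vehicle and from 1.25 to 0.26 under ribavirin, that of Atic from 1.29 to 0.99 and from 2.20 to 1.45, and that of Impdh1 from 0.54 to 0.70 and from 0.66 to 0.89.

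**Figure D4:**
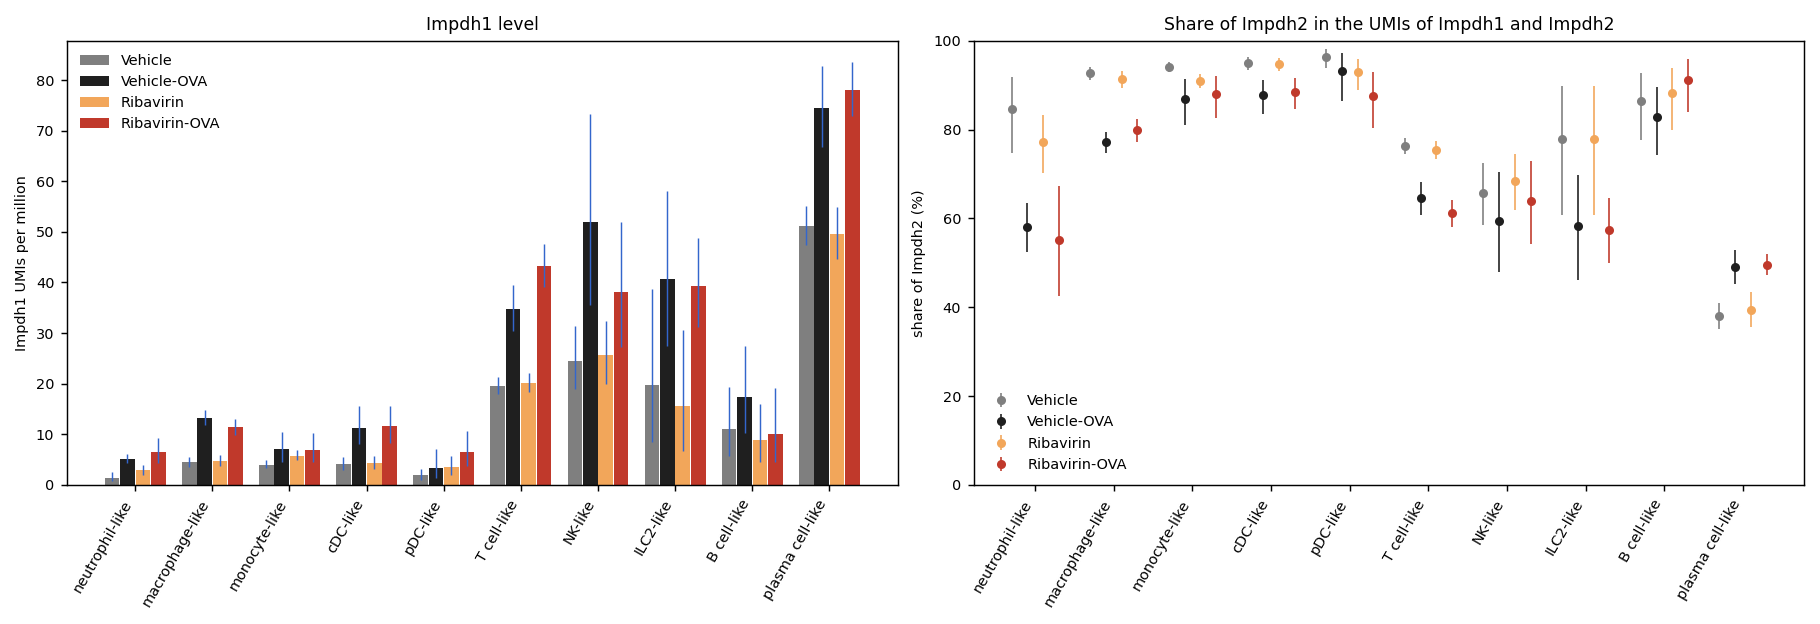
Left, Impdh1 in CPM in the 10 leukocyte classes and 4 libraries, with 95% Poisson intervals; right, the share of Impdh2 in the UMIs of Impdh1 and Impdh2 with 95% exact binomial intervals. Impdh1 is higher in the OVA library of each pair in all classes, and the share of Impdh2 is lowest in plasma cell-like cells at 38.0% to 49.6%.

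The cycling genes, a list of mitotic and replication genes, were summed in each cluster as a measure of dividing cells. In the T cell-like cluster 20, at a mean of 4296 CPM of the list, Impdh2 stood at 137 CPM, Hprt at 176, Gmps at 96.0 and Slc29a1 at 57.6, against 49.0, 90.4, 57.9 and 23.5 CPM in the larger T cell-like cluster 2 with 116 CPM of the list. Impdh1 (28.3 and 24.0 CPM) and Guk1 (51.3 and 58.4 CPM) were close in the 2 clusters. Over 36 clusters the log2 levels had a Pearson correlation with the list of 0.62 for Impdh2, 0.59 for Gmps, 0.58 for Hprt and 0.56 for Atic. It was 0.54 for Adk, 0.49 for Guk1, 0.46 for Slc29a1, 0.32 for Impdh1, 0.04 for Slc29a3 and −0.40 for Nt5c2. By Spearman's rank correlation Impdh1 (0.47) stood beside Hprt (0.48), with Impdh2 at 0.64. The clusters took in the olfactory neuron-like cluster 26, with means of 386 CPM of Impdh1 and 21.0 CPM of the list. These are descriptions, since clusters share libraries and depth and were formed with all genes.

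Around the 10 members stand 50 other genes of purine metabolism and nucleoside transport, all of which were found in the data. Between Ribavirin and Vehicle without OVA, in T cell-like cells 2 of the 42 with enough UMIs were past 1.5-fold higher and 0 lower, where 6.68% of all genes were past it. In macrophage-like cells 0 of 45 were past it, against 7.30% of all genes, and in neutrophil-like cells 3 of 39 were higher and 4 lower, against 19.2% past it. With OVA 2 were higher and 0 lower in T cell-like cells, where 11.5% of all genes were past the fold. Macrophage-like cells had 3 higher and 3 lower, against 13.6% past it, and neutrophil-like cells had 28 higher and 2 lower, where 56.3% of all genes were higher and 7.66% lower. Of the de novo genes that lead to IMP, Atic included, 8 of 10 were higher in neutrophil-like cells with OVA, beside that 56.3%, and 0 of 10 were past the fold in macrophage-like or T cell-like cells. In epithelial-like cells without OVA 27 of 43 were lower and 4 higher, near the 67.1% lower and 11.8% higher of all genes.

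Past 1.5-fold in the same direction in 2 or more of macrophage-like, neutrophil-like and T cell-like cells were Gch1 (lower), Nt5m and Ada (both higher) with OVA, and no gene without OVA, of 42 with enough UMIs in 2 of the classes. Of all 11188 such genes, 5.13% were higher and 2.69% lower by this rule with OVA, and 2.50% and 0.411% without OVA. Gch1 encodes GTP cyclohydrolase, which uses GTP to make tetrahydrobiopterin. It was 54.6 CPM in Vehicle-OVA and 30.7 in Ribavirin-OVA in macrophage-like cells (0.563, 0.508 to 0.623), and 102 and 40.9 CPM in neutrophil-like cells (0.401, 0.344 to 0.464), where the median of all genes was higher. It was 50.1 and 49.6 CPM in T cell-like cells. Without OVA the Gch1 ratio was 1.32 (1.12 to 1.54) in macrophage-like, 1.15 (1.05 to 1.27) in neutrophil-like and 1.34 (1.23 to 1.46) in T cell-like cells. Nt5m, a mitochondrial 5'-nucleotidase, had ratios with OVA of 1.64 (1.19 to 2.29) in T cell-like and 2.73 (1.29 to 5.47) in neutrophil-like cells. Ada, adenosine deaminase, had ratios of 1.62 (1.24 to 2.11) in macrophage-like and 1.77 (1.12 to 2.70) in neutrophil-like cells, where the median log2 ratio of all genes was 0.69.

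Over the 44 sums of class and library and 10054 other genes, the genes whose log2 level went most closely with that of Impdh2 were Mybbp1a (Pearson's r = 0.97), Utp20 and Cct3. For Impdh1 they were Chpf (0.90), Aldh18a1 and Mllt3, for Adk Trabd (0.88) and Mlec, and for Slc29a1 Bicd2 (0.87), Snrpb2 and E130311K13Rik. The sums share libraries and classes, and these likenesses carry no test.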

How the data were processed

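CD45+ nasal cells were isolated with magnetic beads per the labels (the series text names fluorescence-activated sorting) and sequenced as 10x oligo-dT libraries. The authors deposited UMI counts per gene and cell, whole numbers made with Cell Ranger 5.0.0 on mm10 per the submitters' processing notes. Members and gene lists were chosen with earlier results of these data known.

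Cells with at least 500 UMIs, 200 genes and at most 10% mitochondrial UMIs were kept. Doublets were scored against simulated ones in each library and the top-scoring cells removed at 0.4% per 1000 cells, a rule set after the score threshold had marked only 0.408% of Ribavirin-OVA. Counts were log-normalised, reduced to 30 principal components of 2000 genes, and clustered with Leiden at resolution 1.0 (igraph 0.11.9, leidenalg 0.10.2, scikit-learn 1.9.0). Clusters were named from fixed markers; the scoring rule was set after the clusters were seen, and 5 clusters stayed unnamed. A difference from the study may come from these rebuilt names.

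For each class, UMIs were added up within a library and given as CPM with exact Poisson intervals, ratios with exact conditional binomial intervals and shares with Clopper-Pearson intervals, at 95% (scipy 1.17.1). UMIs limit repeat counting of one molecule, and the intervals leave out differences between mice and between libraries. A ratio was counted past 1.5-fold in genes with at least 50 UMIs in a class over the 4 libraries. The procedure was tested on simulated data. The named genes were the 10 members, other pathway genes past 1.5-fold in the same direction in 2 or more of macrophage-like, neutrophil-like and T cell-like cells (at most 5 per comparison), and the 3 genes most like Impdh1, Impdh2, Adk and Slc29a1. Of these last genes 1 is not reported here. Protein sequences were not used here. Results were recomputed under 11 other settings, and under 4 more chosen after seeing the data.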

Additional observations from a re-analysis of the deposited data

Results flagged for a closer look

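Slc29a3 in neutrophil-like cells was lower with ribavirin without OVA (ratio 0.643, 0.507 to 0.816) and higher with it with OVA (ratio 1.76, 1.34 to 2.28), so the 2 comparisons lay past 1.5-fold on opposite sides. The difference between them was not tested, as each group is 1 library. The 4 levels were 16.9 CPM in Vehicle, 9.26 in Vehicle-OVA, 10.9 in Ribavirin and 16.3 in Ribavirin-OVA. The neutrophil-like cells came from different clusters in these libraries, and the median log2 ratio of all genes in the class was −0.16 without OVA and 0.69 with OVA. With these medians subtracted the log2 ratios of Slc29a3 were −0.48 and 0.12, both within 1.5-fold. Within cluster 4 the ratio was 1.03 (0.648 to 1.58) without OVA and 1.25 (0.708 to 2.11) with OVA. Cluster 12 went in the directions of the class, with 17.0 CPM in Vehicle against 7.82 in Ribavirin. With OVA it held 13.1 CPM in Vehicle-OVA against 26.5 in Ribavirin-OVA. In the same 2 OVA libraries cluster 14 was higher (9.26 and 18.2 CPM) and cluster 1 lower (5.53 and 2.05 CPM), so the clusters differed.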

How the results depend on the processing

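No paired analysis was possible because each group is 1 library. The median log2 ratio of the members over all pairs kept its sign under every alternative, between −0.08 and −0.03 without OVA and between 0.03 and 0.12 with OVA. The count of pairs past 1.5-fold without OVA went from 16 to 8 with doublets kept, 10 with doublets marked by the score threshold and 9 with the median of all genes subtracted. With OVA it stayed between 9 and 18. Of 2930 ratios of Ribavirin to Vehicle recomputed under the alternatives, 2794 lay within the original interval, 126 moved by more, and 10 past the fold changed side; between OVA and no OVA these counts were 2640, 284 and 6. Holding every library to 1782 UMIs per cell left 212 of 212 within their intervals. The cause of a change was not tested.

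On the log2 scale the values that changed side were, in epithelial-like cells, Adk with OVA 0.34 and 0.0932 at mitochondrial limits of 5% and 20%. Without OVA they were Slc29a3 0.28 and Hprt 0.32 at resolution 2.0, Slc29a3 0.24, Hprt 0.23 and Impdh2 0.22 with the median subtracted, and Slc29a3 0.0351 by the score threshold. Between OVA and no OVA they were Slc29a3 −0.15 and Adk 0.12 under vehicle and Gmps −0.0046 under ribavirin with the mean of single-cell CPM, and Gmps −0.0169 with the median subtracted. In ILC2-like cells Slc29a3 without OVA was −0.16 with doublets kept (2250 cells against 490). In neutrophil-like cells Hprt with OVA was −0.0943 with the median subtracted, and Slc29a1 for OVA under vehicle was 0.23 at resolution 0.5 and 0.0327 with the mean of single-cell CPM. Slc29a1 and Atic in neutrophil-like cells and all genes in ILC2-like cells of Vehicle (109 cells) rested on few UMIs, and differences there of less than their intervals were not detectable at this depth.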
